A study of Mus musculus with 8 samples.

Results

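A set of 501 RNA regions kept their signal in the m6A immunoprecipitation (IP) of BPA-exposed TM3 cells and had almost no reads in the matching input. They are 501 of the 3331 differential peaks that the authors deposited, or 15.04%, and lie in 454 of 2295 genes. They were selected on the deposited levels, given in RPM, the reads of a peak scaled to a common total per column. The rule asked for 10 or fewer reads in the BPA input and 100 or more in the normal input. It also asked for at least 101 reads in the BPA IP and 139 in the normal IP. The ratio of BPA IP to normal IP in RPM had to lie between 0.5 and 2. Because all 4 RPM columns chose the peaks, their RPM values are a description and carry no test. They are called missing-input peaks here.

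The samples were TM3 cells exposed to bisphenol A (BPA) and normal TM3 cells, each profiled by MeRIP-seq and by RNA-seq. TM3 is an established mouse line derived from Leydig cells, the testosterone-making cells of the testis, and BPA is a plastics monomer with estrogen-like activity. The labels used here name 2 libraries for each of the 4 groups and give no dose, exposure time or source culture, so p-values measure only the spread between libraries, which may be technical. The peak table pools the replicates, with 1 IP and 1 input value per condition, so peak levels have no replicate check. The gene count table holds the 4 RNA-seq libraries one by one. By the series' design text the input was the RNA-seq itself, so gene counts share libraries with the rule and are not independent of it. Even so, some peaks hold more input reads than their whole gene was counted at.

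N6-methyladenosine (m6A) is a methyl mark placed on mRNA mainly by the Mettl3 and Mettl14 writer complex, removed by demethylases such as Alkbh5, and read by YTH-domain proteins that steer splicing, translation and decay. In MeRIP-seq an antibody against m6A pulls down short RNA fragments, and the IP signal of a region is set against the input, which is the same fragmented RNA without the pull-down. The methylation measure is the ratio of the IP to the input. A region can therefore score as gaining m6A when its IP rises or when its input falls.

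The BPA RNA-seq libraries held 8813870 and 6305121 counted reads and the normal libraries 10455643 and 7517482, over 12404 genes. At 10 or fewer reads in both libraries stood 37.4% of the genes in BPA and 12.2% in normal cells, so the BPA libraries lacked more genes throughout. The RPM values were multiples of a fixed step, which gave about 818000 reads behind the scale of the BPA input, 3908000 behind the BPA IP, 1704000 behind the normal input and 5402000 behind the normal IP. A single read is thus worth 1.22 RPM in the BPA input and 0.587 RPM in the normal input. Of 8 Leydig cell markers (Star, Cyp11a1, Cyp17a1, Hsd3b1, Hsd3b6, Insl3, Lhcgr and Nr5a1) 0 were rows of the count table, so the cell type was not checked by them. Of 18 markers of other testis cells, 5 were rows of it (Clu, Wt1, Dhh, Cd68 and Acta2), and 0 carried a missing-input peak. Together the 5 came to 336 and 385 CPM, counts scaled to plain library totals, in the BPA libraries, against 191 and 362 CPM in normal cells. Cd68, a macrophage marker, was counted at 174 and 436 reads after BPA, against 0 and 59 in normal cells. Acta2, smooth muscle actin, was at 498 and 1270 reads after BPA, against 80 and 352 in normal cells. Both were thus higher in each BPA library than in either normal one. The other listed markers of these cell types (Adgre1, Csf1r and Ptprc, and Myh11, Pecam1 and Cdh5) were not rows of the count table. Each cell type thus rests on a single gene. Wt1 and Clu overlapped between the groups, and Dhh had 0 reads in 3 of the 4 libraries. Their part in the results was not tested.

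In the BPA IP the missing-input peaks had a median of 171 RPM (50.2 to 956), and in the normal IP a median of 172 RPM (43.3 to 837). In the BPA input their median was 2.44 RPM (0 to 12.2), against 173 RPM in the normal input (100 to 2325 reads, or up to 1365 RPM). The IP levels of the conditions therefore covered about the same range, while the input levels did not overlap, as the rule required. The BPA input held 0 reads in 109 of the peaks (21.8%), 1 read in 94, 2 reads in 76, and 8 to 10 reads in 22, 7 and 13. The IP was higher in BPA for 259 peaks and lower for 242, with a median ratio of 1.02. Within 2-fold is not the same as equal, since an exact 95% interval of the IP ratio held 1 in 69 of the 501 peaks (13.8%). Intervals here cover counting error only, since the labels name no molecular identifiers and duplicate reads may be counted.

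**Figure D1:**
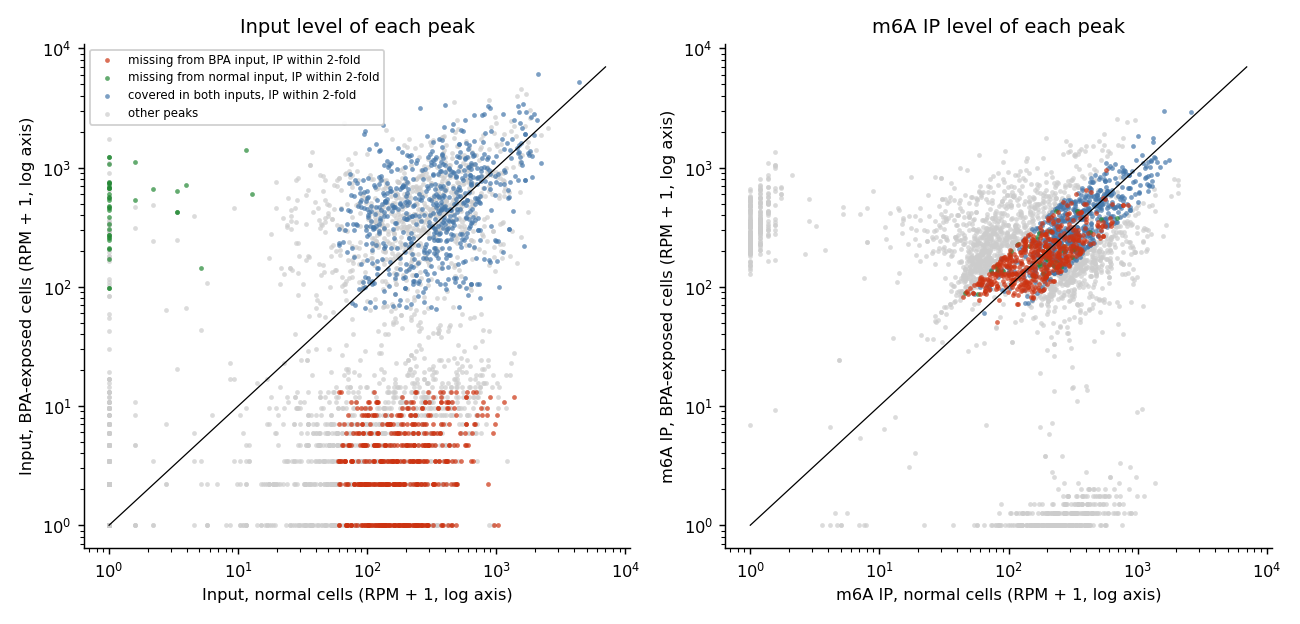
Level of each of 3331 peaks in BPA-exposed cells (vertical axis) against normal cells (horizontal axis), for the input on the left and the m6A IP on the right, in RPM + 1 on log axes; each point is 1 peak, 1 pooled value per condition, and the line marks equal levels. The 501 red peaks hold 10 or fewer reads in the BPA input and lie near the line in the IP, as the rule set.

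Low input levels were more common in BPA than in normal cells. Over all 3331 peaks, 49.8% were at or under the limit in the BPA input, which is 10 reads there, and 11.4% were at or under the same RPM in the normal input, which is 20 reads there. Of the 1414 peaks with a stable IP, 501 were missing from the BPA input and 41 were missing from the normal input by the mirrored rule. A further 612 were covered in both inputs, meaning at or above the RPM that 100 reads give in the normal input and 49 reads give in the BPA input, and 260 were in none of these 3 sets. The BPA input also has the smallest total behind its scale. The 3331 peaks alone sum to 894159 RPM there and to 884773 RPM in the normal input. That total is thus close to the reads of the listed peaks and is not the depth of a whole library. Scale total and condition differ together, and the part of the scale total in these counts was not tested.

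The 12 missing-input peaks with the highest normal input lay in genes of varied function, with positions on the build read as GRCm39. Bmp2k, which encodes a kinase of the clathrin coat machinery, had a peak at chr5:97238772-97238921 with an IP of 539.9 RPM in BPA and 561 RPM in normal cells. Its input was 11 RPM, or 9 reads, in BPA against 1365 RPM, or 2325 reads, in normal cells, 124-fold lower. Srsf10, a splicing regulator, had at chr4:135592232-135592381 an IP of 956 RPM in BPA and 572 RPM in normal cells, and an input of 9.78 against 1147 RPM. Its IP was the highest of any missing-input peak in BPA.

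Ywhaz, which encodes the phosphoserine-binding adaptor 14-3-3 zeta, had at chr15:36772964-36772988 an IP of 347 RPM in BPA and 628 RPM in normal cells. Its BPA input held 0 reads against 1763 reads in the normal input, at least 282-fold lower against a floor of 3 reads in the BPA column. Tuba1a, an alpha-tubulin gene, likewise had 0 reads in BPA against 1639 in the normal input, at least 262-fold lower, at chr15:98848093-98848117, with an IP of 492 RPM in BPA and 382 RPM in normal cells. Tubulin and 14-3-3 genes have close copies, and no source used here says how reads that fit several places were counted, so these values are uncertain.

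Rad21, of the cohesin ring, had 1 read in BPA against 1470 in the normal input and an IP of 300.4 RPM in BPA against 522 RPM in normal cells. The exact 95% interval of its input ratio of 0.00141 ran up to 0.00790. The other peaks in this group belonged to Ero1l (disulfide formation in the endoplasmic reticulum), Nme1 (a nucleoside diphosphate kinase), Lrrc59 (a ribosome-associated membrane protein), Arglu1 (a splicing modulator), Anp32b (a histone chaperone), Mrpl24 (of the mitochondrial ribosome) and Ghitm (of the inner mitochondrial membrane). Their BPA input ran from 4.89 RPM for Lrrc59 to 11 RPM for Arglu1. Their normal input ran from 790.05 RPM for Ghitm to 1008 RPM for Ero1l.

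**Figure D2:**
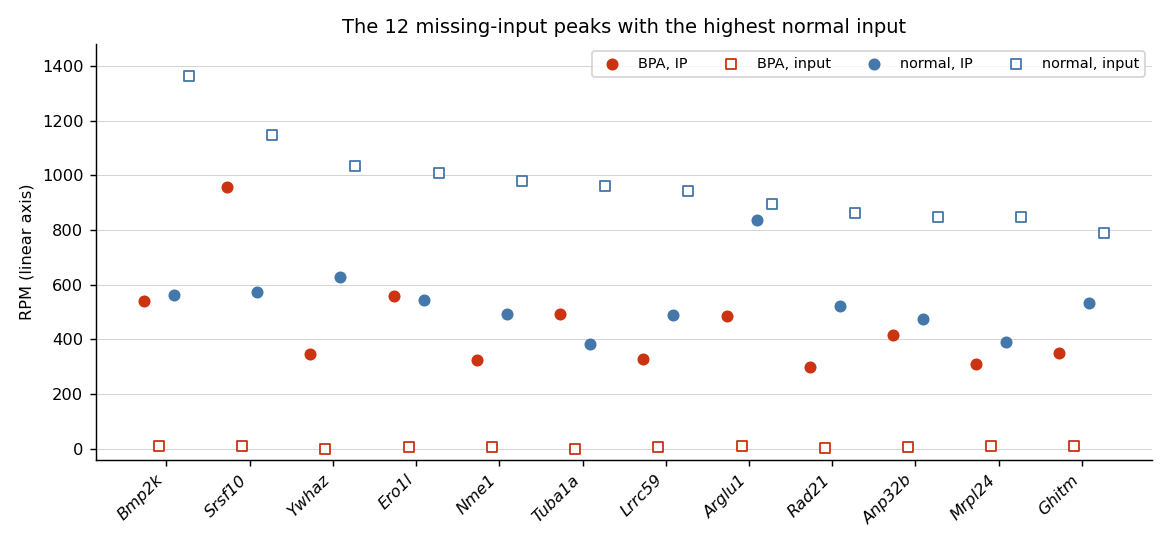
IP (circles) and input (squares) of the 12 missing-input peaks with the highest normal input, in BPA-exposed (red) and normal (blue) cells, in RPM on a linear axis; each mark is 1 pooled value. The BPA input is at or under 11 RPM in all 12, while the BPA IP lies between 300.4 and 956 RPM.

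The 8 missing-input peaks with the highest BPA IP included 3 of the genes above, Srsf10, Ero1l and Bmp2k. Lpl, which encodes lipoprotein lipase, had an IP of 646 RPM in BPA and 399 RPM in normal cells, with an input of 9.78 against 374 RPM. Lars, the leucyl-tRNA synthetase gene, had an IP of 624 against 435 RPM and an input of 12.2 against 482 RPM. Nmt1, an N-myristoyltransferase gene, had 598 against 333 RPM in the IP and 11 against 585 RPM in the input. Dst, which encodes the cytolinker dystonin, had 505 against 305 RPM in the IP and 1 read against 382 reads in the input. Snhg5, a noncoding host of small nucleolar RNAs, had 513 against 264 RPM in the IP, close to the upper limit of the ratio. All of these except Ero1l and Bmp2k had a BPA IP at least 1.43-fold that of normal cells. The peaks were picked for a high BPA IP, which favours a high ratio, so no rise of the IP is read from them. Over all missing-input peaks the median ratio was 1.02, with the IP higher in BPA for 259 peaks and lower for 242.

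The limits cut through continuous ranges. Just inside the limit on the BPA input, Cbx5, Gosr1 and Nup153 stood at 12.2 RPM, and just outside it Axl, Vdac3 and Sptbn1 stood at 13.4 RPM. Sltm at 100 reads, with Ccar1 and Myh9 at 59.3 RPM, lay just inside the minimum of the normal input, and Lrrc14, F730043M19Rik and Ahnak at 58.1 RPM just outside. At the lower limit of the IP ratio Armh3 stood at 0.5003 inside, with Wdr38 and Rpl35 at 0.501, and Snrnp200 at 0.498, Rbmxl1 at 0.497 and Dynll2 at 0.496 stood outside. At the upper limit Plk2 and Anapc2 stood at 1.99 and Ddr2 at 1.97 inside, while Eif4g1 at 2.001, Zbtb18 at 2.01 and Psmd7 at 2.02 stood outside. The IP minimum removed no peak. The lowest IP value of a missing-input peak was 43.3 RPM, in Atp6v1e1, followed by Ankrd52 at 45.5 and Txndc5 at 46.7 RPM.

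In the authors' deposited table all 501 peaks had a positive log2 fold change, whose sign follows IP over input in BPA against normal, from 3.24 to 12.1 with a median of 7.005. The authors' deposited table gives a positive change for 68.8% of its 3331 peaks. All the same columns entered the rule, so nothing is read from this count. In the authors' deposited table every missing-input peak had a false discovery rate of at most 9.99e-06. Taken from the RPM columns, the log2 ratio of BPA to normal had a median of 0.02 for the IP, with quartiles of -0.45 and 0.55. For the input it had a median of -5.81 in the 392 peaks with at least 1 BPA read. In the 109 peaks at 0 reads the ratio is undefined. There the normal input was at least 16.2-fold to at least 282-fold above a floor of 3 reads in the BPA column. Of the 2291 peaks with a positive log2 fold change in the authors' deposited table, 1047 (45.7%) had an IP ratio between 0.5 and 2. The share over all 3331 peaks was near that, at 1414 (42.4%). The 501 missing-input peaks were among the 1047 and made up 21.9% of the 2291.

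The gene counts asked whether the RNA of these genes was missing as a whole from the BPA libraries. For most it was not. Of the 454 genes, 432 were rows of the count table, and they had a median of 1067 and 570 reads in the BPA libraries, against 1332 and 954 reads in the normal libraries. At least 100 reads in both BPA libraries were counted for 284 of the 432 genes (65.7%), where 28.3% of all genes of the table reached that level. The share was 65.8% among genes with other peaks alone and 78.4% among genes of stable-IP peaks covered in both inputs. In 38 genes (8.80%) both BPA libraries held 10 or fewer reads, where 37.4% of all genes of the table did, and 9.80% of the 1734 genes with other peaks alone. In another 86 genes (19.9%) 1 of the BPA libraries held 10 or fewer reads and the other held more, where 29.3% of all genes of the table did. Taken alone, BPA replicate 1 held 10 or fewer reads for 70 of the genes, where 49.1% of all genes of the table were that low, and BPA replicate 2 for 92, where 54.9% were.

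**Figure D3:**
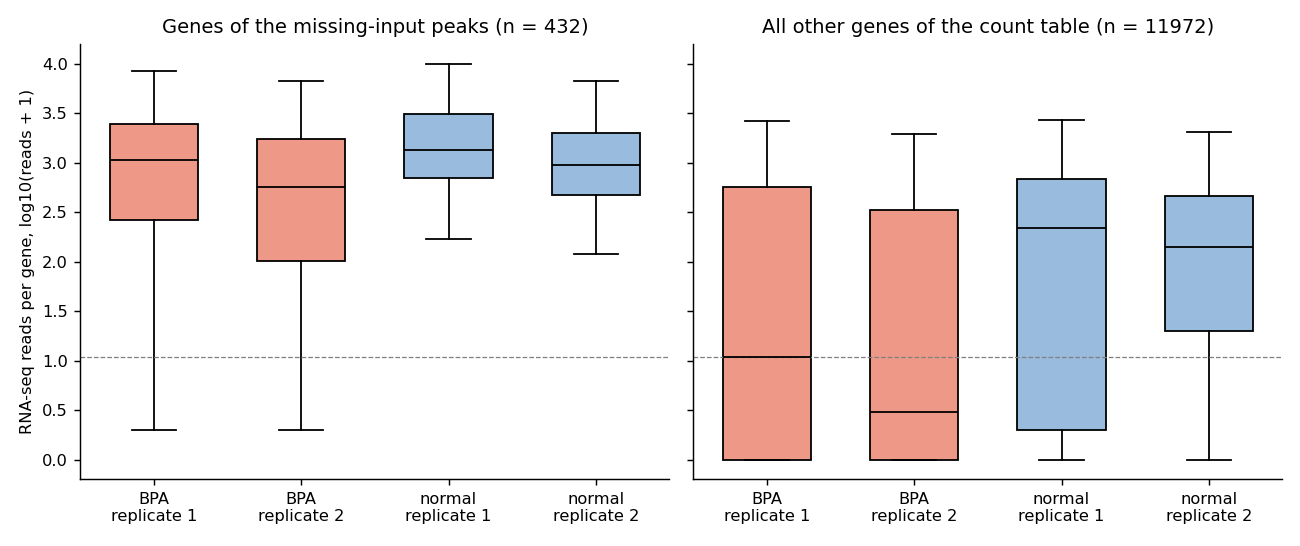
RNA-seq reads per gene in the 2 BPA and 2 normal libraries as log10(reads + 1), for the 432 genes of missing-input peaks on the left and all 11972 other genes of the count table on the right; boxes span the quartiles with the median, whiskers the 5th to 95th percentile, and the dashed line marks 10 reads. The genes of missing-input peaks have medians of 1067 and 570 reads in the BPA libraries, above the line.

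Some of the most abundant RNAs of BPA-exposed cells were among them. Pabpc1, which encodes the cytoplasmic poly(A)-binding protein, was counted at 34714 and 24787 reads after BPA, against 36785 and 26271 reads in normal cells, yet its peak at chr15:36598230-36598254 held 1 BPA input read against 207 normal reads. Fn1, the fibronectin gene, was counted at 31080 and 14489 reads after BPA, against 48047 and 29034 in normal cells, and its peak at chr1:71624879-71624978 held 0 against 341 input reads. The IP of that peak was 119 RPM in BPA and 119.95 RPM in normal cells. In both genes the reads of the whole gene were plentiful in each library, while the peak was empty or nearly so in the BPA input.

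For Anp32b the BPA libraries gave 31254 and 20050 reads, against 20878 and 11335 in normal cells. That was 3689.5 ± 81.5 CPM in BPA and 1631 ± 251 CPM in normal cells (SD, n = 2 each). From here on CPM are scaled by edgeR's TMM factors, while the marker genes above used plain library totals. The Anp32b peak had a lower input in BPA, with 6 reads against 1445 in normal cells. The gene count and the peak input thus pointed in opposite directions. Canx, the ER chaperone calnexin, had 3163 ± 1127 CPM in BPA and 1606 ± 152 CPM in normal cells (SD, n = 2 each), and 4 against 557 input reads at chr11:50185413-50185487. Pcbp1, a poly(C)-binding protein gene, had 4013 ± 637 CPM in BPA and 3285 ± 2058 CPM in normal cells (SD, n = 2 each), with 3 against 504 input reads. Prdx1, a peroxiredoxin gene, had 2823 ± 807 CPM in BPA and 2934 ± 971 CPM in normal cells (SD, n = 2 each), with 2 against 609 input reads. The CPM of the groups overlapped in Pcbp1 and Prdx1 and did not in Anp32b and Canx. edgeR gave Anp32b and Canx an adjusted p of 0.329 each, and DESeq2 gave 0.00202 for Anp32b and 0.0374 for Canx.

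In 38 genes the RNA-seq reads of the whole gene were also low in BPA. Map1lc3b, which encodes the autophagosome protein LC3B and is the m6A target named in the series title, was among them. The gene was counted at 2 and 2 reads after BPA, against 416 and 350 in normal cells. Its only peak in the table lay at chr8:122323383-122323482 on the plus strand, with an IP of 201 RPM (784 reads) in BPA and 246 RPM (1329 reads) in normal cells. The input there was 4.89 RPM (4 reads) in BPA and 197 RPM (335 reads) in normal cells, 40.2-fold lower, with an exact 95% interval of the ratio from 0.00673 to 0.0643. The authors' deposited table gives this peak a log2 fold change of 5.81. Here the reads of the whole gene and the input of the peak were both low in BPA, while the IP differed by less than 2-fold. In edgeR's quasi-likelihood fit (Benjamini-Hochberg adjusted) the gene had a log2 fold change of -7.00 ± 2.70 (SE) and an adjusted p of 0.351, which did not pass 0.05. Its adjusted p was 0.0226 without BPA replicate 1, the lowest of its alternatives, which ran up to 1, and 0.0846 with DESeq2.

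Of the 36 core autophagy genes listed, 4 had a peak in the table and 1, Map1lc3b, had a missing-input peak. Of 26 genes of the m6A machinery, 10 had a peak and 2 had a missing-input peak. Ythdf1, a cytoplasmic m6A reader, had 0 against 203 input reads at chr2:180552963-180553012 and an IP of 119 RPM in BPA against 60.7 RPM in normal cells. The gene was counted at 901 and 1 reads after BPA, against 988 and 719 in normal cells, so the BPA replicates disagreed. Pcif1, the methyltransferase that marks a cap-adjacent adenosine, had 2 against 102 input reads and 1 and 1 gene reads in BPA against 281 and 188 in normal cells. Over all 8645 tested genes edgeR called 0 (0%) at an adjusted p of 0.05, and 14% had an unadjusted p under 0.05, with 1.35% higher and 12.7% lower. DESeq2 called 3.05% of them, with 0.521% higher and 2.53% lower. Of 29 tested autophagy genes edgeR called 0 after adjustment and DESeq2 called 3, and the unadjusted p of edgeR was under 0.05 for 0 higher and 6 lower genes. Of 24 tested m6A genes edgeR called 0 after adjustment and DESeq2 called 2, and that unadjusted p was under 0.05 for 1 higher and 3 lower genes. The median log2 fold change was -0.91 for the autophagy list and 0.23 for the m6A list, against -0.04 over all tested genes.

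Among the genes with the fewest BPA reads, Thbs2, the matricellular protein thrombospondin-2, had no read in either BPA library, where the normal libraries held 326 and 189, so it was at least 144-fold lower against a floor of 3 counts over the BPA libraries. Cc2d1b, an ESCRT-associated gene, also had none, where the normal libraries held 180 and 282, which is at least 129.5-fold lower on the same floor. Fam32a had 0 and 1 reads in BPA against 552 and 117 in normal cells, and Sass6, a centriole assembly gene, had 1 and 0 against 412 and 129. Psmf1, a proteasome inhibitor gene, had 0 and 1 BPA reads against 0 and 537 in normal cells. The predicted gene Gm5555 had 1 and 0 against 142 and 0. In the last 2 genes the normal libraries disagreed as well. The IP of all 6 peaks lay between 97.2 and 254 RPM in BPA and between 65.0 and 279.7 RPM in normal cells.

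Of the 420 tested genes of missing-input peaks edgeR called 0 after adjustment. The unadjusted p was under 0.05 for 32 (7.62%), of which 10 were higher and 22 lower, where it was for 117 higher and 1095 lower genes among all 8645 (14%). DESeq2 called 15 of the 420 (3.57%), of which 3 were higher and 12 lower, where it called 45 higher and 219 lower genes among all tested (3.05%). The 3 were Anp32b, Canx and Lrrcc1, and the 12 lower genes, among them Nme1, Mrpl24, Zmpste24 and Kdelr1, had at most 8 reads in any BPA library. For Nme1 this count conflicts with the peak levels. Its gene was counted at 4 and 1 BPA reads, yet a peak 25 nt from its missing-input peak held 262 BPA input reads. The CPM of the 2 BPA libraries lay below both normal libraries in 104 of the 420 genes (24.8%), where 27.2% of all tested genes did. It lay above both in 62 (14.8%), where 12.8% of all tested genes did. These shares are near those of all genes. Among genes with other peaks alone, 17.9% lay below and 19.6% above, and DESeq2 called 1.60%. In genes of stable-IP peaks covered in both inputs, 14.0% lay below and 23.1% above, and DESeq2 called 0.849%. Against both sets, genes of missing-input peaks lay below more often and above less often. The gene counts share libraries with the rule, which asked for a low BPA and a high normal input. The choice of peaks thus favoured this order, and nothing is read from it. The count of 0 turned on single libraries, with 91 of 428 of these genes (21.3%) called by edgeR without BPA replicate 1 and 13 of 428 (3.04%) without BPA replicate 2. The shares over all tested genes moved likewise, to 16.9% without BPA replicate 1 and 1.81% without BPA replicate 2. The median log2 fold change of the 420 genes was -0.09 against -0.04 over all tested genes. It was 0.14 for genes with other peaks alone and 0.16 for genes of stable-IP peaks covered in both inputs. The sign for the 420 genes turned with the scaling, to 0.059 in the DESeq2 fit, where all tested genes had 0.0996.

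The gene counts can be set beside the peak input, though they do not always tally. The Tuba1a peak held 1639 normal input reads, where its gene was counted at 744 and 50 reads in the normal libraries. The Gm5555 peak held 202 such reads, where its gene was counted at 142 and 0. The cause of this was not tested. The reads of the gene in BPA over normal, scaled by library totals, had a median ratio of 0.806 over 476 missing-input peaks with counts, with quartiles of 0.483 and 1.14. The ratio lay between 0.5 and 2 for 331 of them (69.5%), below that in 127 and above in 18. Multiplying the normal input of each peak by that ratio gave a median of 136 RPM, where the deposited BPA input had a median of 2.44 RPM. Gene counts were scaled by library totals, and RPM by other totals, about 818000 reads for BPA and 1704000 for normal cells. The product is therefore only roughly on the scale of the BPA input. The scaled value reached the minimum set for the normal input in 376 of the 476 peaks (79.0%) and was at or under the limit set for the BPA input in 39 (8.19%). For 583 peaks with a stable IP and both inputs covered, the gene ratio had a median of 0.925 and the scaled value a median of 259 RPM, against a deposited 480 RPM. The difference in scale enters this gap, so it is not read as a rise of the input. The low input of the missing-input peaks was thus mostly not matched by the counts of their genes.

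**Figure D4:**
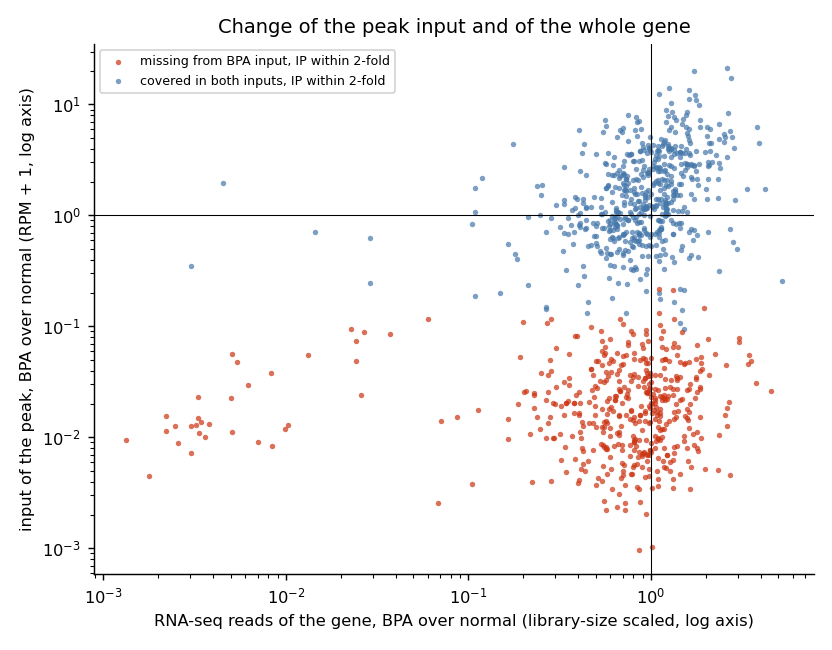
Ratio of BPA to normal for the input of each peak (vertical axis, from RPM + 1) against the ratio for RNA-seq reads of its whole gene, scaled by library totals (horizontal axis), both on log axes; red points are missing-input peaks, blue points stable IP peaks covered in both inputs, and genes with 0 BPA reads are left off. Most red points lie near a gene ratio of 1 (median 0.806), with a separate group of genes far to the left.

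Several genes carried more than 1 missing-input peak. Of the 454 genes, 36 had 2, 4 had 3 and Srsf10 had 4. The 4 Srsf10 peaks lay between chr4:135590832 and 135592381 and held 3, 5, 8 and 8 input reads in BPA, in order of position, against 168, 140, 196 and 1954 in normal cells. The gene itself had 461 ± 104 CPM in BPA and 406 ± 9.81 CPM in normal cells (SD, n = 2 each), so all 4 peaks were low in the input of a gene whose reads were present in both BPA libraries. Ddb1, of the damage-recognition ubiquitin ligase, had 3 peaks with 1, 0 and 4 input reads in BPA against 324, 237 and 143 in normal cells. Its gene had 776 ± 82.0 CPM in BPA and 750.5 ± 17.97 CPM in normal cells (SD, n = 2 each). By plain library totals the means of Srsf10 and Ddb1 were lower in BPA, so the order of the groups turned with the scaling.

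Vps35, of the retromer sorting complex, had 3 peaks with 3, 2 and 2 input reads in BPA against 286, 113 and 113 in normal cells. Txndc5, an ER disulfide isomerase gene, had 3 with 2, 1 and 4 against 215, 117 and 892. Arglu1 had 3 with 8, 0 and 9 against 507, 219 and 1527. The peaks of a gene share their source and are not replicates. In 10 peaks of 5 genes (Lsm3, Pum3, Riok1, Rps25 and Vps35) all 4 RPM values equalled those of another missing-input peak of the same gene. A further 6 pairs with equal values lay at 1 place but were listed under different genes, such as Rpl35 and Wdr38, or Smtn and Gm11946. The 501 peaks thus hold 490 distinct sets of values.

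The genes with 2 missing-input peaks included several of RNA handling and translation: Pabpc4, Zc3h14, Riok1, Caprin1, Syf2, U2af2, Lsm3, Sltm, Pum3, Gigyf2, Eef2, Aars and Rps25. Others act in chromatin, replication and division (Tmpo, Ndc80, Smc5, Rfc1, Smarcad1, Mki67, Baz1a and Plk2) or in transport and the cytoskeleton (Glg1, Gosr1, Kif1c, Lman2, Myh9, Ipo5, Ctnna1 and Pfdn6). Also among them were Ccdc186, Ptprq, Ncoa4, Msln, Gm12671 and 1 pair of overlapping gene IDs that the table joins. Mki67, the Ki-67 proliferation marker, had 1 and 0 input reads in BPA at its peaks against 147 and 274 in normal cells. Its gene had 1510.3 ± 83.4 CPM in BPA and 1388 ± 239.6 CPM in normal cells (SD, n = 2 each). By plain library totals its mean was lower in BPA.

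Other peaks of the same genes showed what the BPA input held elsewhere in the transcript. Of the 454 genes, 186 had at least 1 further peak in the table, 320 peaks in all. Of these, 179 (55.9%) were covered in the BPA input, at 49 reads or more, 119 (37.2%) were also at 10 or fewer, and 22 lay between. The peaks of all other genes had 51.4% covered and 41.4% at or under the limit. In 125 of the genes a missing-input peak therefore stood beside a peak of the same gene that the BPA input covered. Of the 523 genes with a stable IP peak covered in both inputs, 72 also had a missing-input peak, which is 13.8% of those genes and 15.9% of the 454.

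Some neighbouring peaks had very different levels in the BPA input. Among unspliced peaks of 1 gene at most 200 nt apart there were 47 pairs of a missing-input peak and another peak, and in 27 pairs of 24 genes the other peak was covered in the BPA input. In those 27 pairs the missing-input peak had a median of 2.44 RPM in the BPA input and its neighbour a median of 445 RPM (110 to 2076). In the normal input the medians were 215 RPM for the missing-input peaks and 312 RPM for their neighbours. In the BPA IP they were 190.4 and 249 RPM, and in the normal IP 168 and 324 RPM. The neighbours were picked for BPA input coverage, so the contrast in that column is part of the choice. These pairs and the distance limit were chosen after their values were seen.

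Luc7l3, an SR-like splicing gene, had a missing-input peak at chr11:94182341-94182365 with 2.44 RPM in the BPA input against 479 RPM in the normal input. Its neighbour at chr11:94182241-94182265, 75 nt away, had 1044 RPM in BPA and 134 RPM in the normal input. Myo10, an unconventional myosin gene, had a peak with 0 against 325 RPM in the input between neighbours at 733 against 372 RPM and 722 against 335 RPM, 25 and 100 nt away. The Fn1 peak above had a neighbour 25 nt away with 779 RPM in BPA and 381 RPM in the normal input. In each of these genes the BPA input was high next to a stretch where it was near 0.

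In 2 of the 27 pairs the neighbour was missing from the normal input. Nmt2, an N-myristoyltransferase gene, had 0 RPM in the BPA input and 193 RPM in the normal input at chr2:3327209-3327283. At chr2:3327159-3327183, 25 nt away, it had 746 RPM in the BPA input and 0 RPM in the normal input, while the IP there was 219 RPM in BPA and 142 RPM in normal cells. Tuba1a had 664 RPM in the BPA input and 1.17 RPM in the normal input at a peak 200 nt from its missing-input peak. Across all distances, 5 of the 454 genes also had a stable IP peak missing from the normal input, where 40 of all 2295 genes with a peak did. In Nmt2 and Tuba1a the direction of the input difference thus turned between nearby stretches, and the Tuba1a values are uncertain, as said above.

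**Figure D5:**
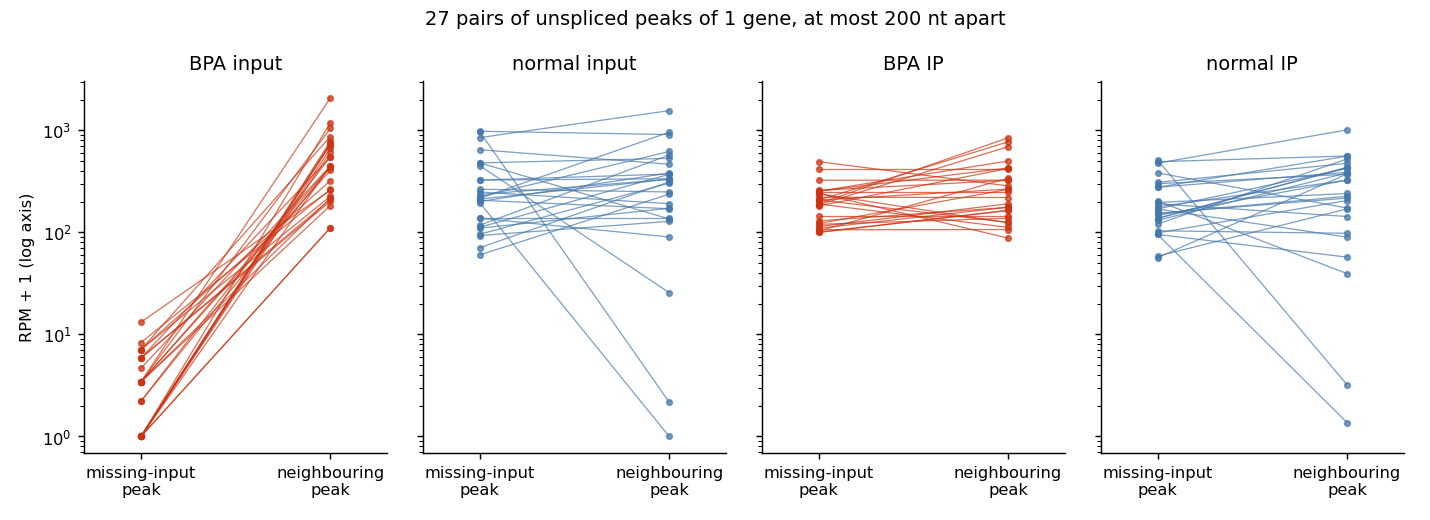
RPM + 1 (log axis) of 27 pairs of unspliced peaks of 1 gene at most 200 nt apart, in the BPA input, normal input, BPA IP and normal IP; each line joins a missing-input peak (left) to a neighbouring peak (right) chosen for a BPA input of at least 49 reads. The medians are 2.44 and 445 RPM in the BPA input and 215 and 312 RPM in the normal input.

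In shape and position the missing-input peaks resembled the table as a whole. Their median length over blocks was 75 nt, as over all peaks, and 25.3% were 25 nt long against 26.8% of the other 2830 peaks. Spliced peaks, with more than 1 block, were 22.4% of them and 19.2% of the others. The plus strand held 48.3% against 49.96% of the others. By chromosome they made up from 9.93% of the peaks on 17 to 19.3% on 13, and 0 of 10 on the mitochondrial genome and 0 of 4 on Y. In normal cells their IP over input had a median ratio of 0.866, against 0.848 for the others. By gene biotype in RefSeq, 416 of the 454 genes were protein coding (91.6%, against 86.3% of all genes with a peak), while 14 were pseudogenes (3.08% against 6.54%) and 4 were long noncoding. Exon, intron and UTR positions are not analysed here.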

How the data were processed

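Per the labels' protocols, mRNA was purified with magnetic beads, fragmented, and in part enriched with an m6A antibody kit. The gene counts were deposited as whole read counts per Ensembl gene. The submitters' processing notes list HISAT2 2.2.1, featureCounts 2.0.1, DESeq2 1.38.3 and fastp 0.20.1, with no role for each. Headers of the count columns give the condition and replicate without the assay, and the columns were read as the RNA-seq libraries. RPM levels come from the authors' peak table, which pools replicates. No source used here names the peak caller or the total behind the scale. In all 4 columns 100% of the values were whole multiples of 1 step, within 0.1 read. That table also holds the authors' log2 fold change, p-value and FDR (false discovery rate), from a test that no source used here names. The table holds differential peaks alone, with a false discovery rate up to 0.0147, so a peak with both IP and input unchanged is not in it.

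Starts were made 1-based. The notes name GRCm39 and GRCh38. Of 3176 peaks, 11.3% lay inside their gene's GRCm38 span, so the build was read as GRCm39. No genome of that build was used here, so peak sequences and motifs are not shown. Symbols matched 447 of 454 genes, and 7 were joined IDs. Of the genes, 22 were not rows of the count table.

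RNA-seq counts entered edgeR 4.0.16 under R 4.3.3 (TMM, filterByExpr with minimum count 10 and total 15, robust quasi-likelihood F test, Benjamini-Hochberg adjustment over 8645 genes) and with DESeq2 1.42.0. Standard errors were derived from the F statistic. The scripts were checked on simulated counts. Exact (Clopper-Pearson) 95% intervals of ratios and floors of 3 reads cover counting error only. Scipy 1.17.1, pandas 2.3.3 and matplotlib 3.10.9 were used.

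The peaks, lists and rules were chosen with earlier results of these data known. Named were the 12 peaks with the highest normal input, the 8 with the highest BPA IP, the 6 genes with the most and the 6 with the fewest BPA reads among those with at least 100 normal reads, genes with 2 or more such peaks, the 3 peaks on each side of each limit, Map1lc3b, and members of the m6A and autophagy lists. Any other gene is named with its values already known. A gene that this rule would name is not reported here.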

Additional observations from a re-analysis of the deposited data

How the results depend on the processing

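The number of missing-input peaks, 501, stayed within 1.5 times under 5 of 7 other limits. Among the 5, a false discovery rate of at most 0.001 could not change it, since these peaks all had 9.99e-06 or less. A doubled IP minimum, which few of these peaks lay near, gave 495. It was 109 with 0 reads allowed in the BPA input and 286 with an IP ratio of 0.67 to 1.5. The 41 peaks missing from the normal input became 39 with a limit of 10 reads. The 38 genes with 10 or fewer reads in both BPA libraries became 34 with a limit of 5 and 40 with a limit of 50. With 1 BPA library alone they became 92 (without BPA replicate 1) and 70 (without BPA replicate 2), an alternative chosen after seeing the data and less strict by construction.

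Over all genes edgeR's 0 calls became 1 with no filter on low counts, 1 with replicate number as a block, and 3 to 1877 with 1 library left out. DESeq2 called 264. For the genes of missing-input peaks the 0 calls became 15 with DESeq2, stayed 0 with the replicate block, and ranged from 0 to 91 with 1 library left out, 91 without BPA replicate 1 and 13 without BPA replicate 2. Fits with 1 library left out assume that the lone library varies like the other group. The replicate block gave a median log2 fold change of -0.36. The numbers do not pair the libraries, with a correlation of -0.000963 between the differences of replicate 1 and 2 over 8645 genes. The median of these genes, -0.09, became 0.059 with DESeq2's size factors and 0.059 with DESeq2, and ranged from -0.23 to 0.086 with 1 library left out. The log2 fold change of Prdx1, -0.06, became 0.080 with DESeq2's size factors, 0.010 with no filter and 0.080 with DESeq2, and ranged from -0.34 to 0.36 with 1 library left out. That of Pcbp1, 0.29, ranged from -0.12 to 1.16 with 1 library left out. The cause was not tested. The BPA input has the smallest total behind its scale, so a peak at 0 reads allows a level of up to 3.67 RPM.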

Other observations

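Gene families among the missing-input peaks, grouped by symbol after the peaks were seen, are given as counts. Over all genes with a peak, 19.8% had a missing-input peak. Of 11 aminoacyl-tRNA synthetase genes with a peak, which charge tRNAs with amino acids, 6 had a missing-input peak (Aars, Gars, Lars, Rars, Sars and Yars), with a BPA input of 0 to 12.2 RPM against a normal input of 95.1 to 482 RPM. Aars had 5225 and 2198 gene reads after BPA against 8883 and 4331 in normal cells, Gars had 3337 and 2591 against 5640 and 3368, and Sars had 889 and 4 against 2280 and 715. Of 27 translation initiation factor genes 9 had one, among them Eif4g2 with 14903 and 9122 gene reads after BPA against 16392 and 9932 in normal cells, and Eif4e, the cap-binding protein, with 3928 and 4414 against 3697 and 3350.

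Of 32 ribosomal protein genes with a peak 5 had a missing-input peak, and of 10 collagen genes 4 had one, including Col1a2 with 21285 and 11014 gene reads in BPA against 28630 and 26497 in normal cells. All 3 peroxiredoxin genes with a peak had one (Prdx1, Prdx2 and Prdx4). Of 8 kinesin genes 3 had one, and of 7 SR splicing factor genes 2. These 7 families are all that were counted, and the counts carry no test.

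Adjacent peaks of a gene sometimes carried the same deposited value in 1 column. Of the 501 missing-input peaks, 31 had a BPA IP equal to the last digit to that of another peak of the gene, 28 a normal IP and 18 a normal input. A BPA input equal to that of another peak of the gene was found for 56, in a column where these peaks hold whole reads from 0 to 10. Anp32b had 417 RPM in the BPA IP at both of its neighbouring peaks, while the BPA input was 7.33 RPM at the missing-input peak and 263 RPM at the other. Fosl2 had 145 RPM in the BPA IP at both, with a BPA input of 4.89 and 210.2 RPM.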
